A study of Homo sapiens with 12 samples.

Results

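MYC and the genes of ribosome biogenesis, a group of 45 genes chosen by symbol from 23273 genes in each expression table, were followed in COLO858 and MMACSF, human melanoma cell lines with mutant BRAF, under the RAF inhibitor vemurafenib. The other 44 genes fall into RNA polymerase I transcription (6 genes), nucleolar architecture and chaperones (9 genes), the box C/D and H/ACA snoRNP (small nucleolar ribonucleoprotein) group (7 genes), the small ribosomal subunit (11 genes) and the large ribosomal subunit (11 genes). Each line was sampled under DMSO, the vehicle, and after 24 and 48 h in 0.2 μM vemurafenib, with 2 replicates per group and 12 libraries in all. The study asked how melanoma cells adapt to RAF inhibition, with COLO858 as the line in which it followed a slowly dividing, NGFR-high state and MMACSF as the line set against it. The DMSO groups are given no time in the labels and serve as the reference for both drug times. COLO858 was grown in RPMI and MMACSF in DMEM/F12, each with serum, so medium and line cannot be told apart.

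MYC is a transcription factor that binds DNA as a dimer with MAX, mostly at the sequence CACGTG (the E-box), and drives genes of growth. Making a ribosome is among the most costly of those programs: RNA polymerase I copies the ribosomal DNA in the nucleolus, snoRNPs modify the transcript, and chains of assembly factors cut it, fold it and load ribosomal proteins to give the small and the large subunit. In BRAF-mutant melanoma, signalling through ERK is known to sustain both MYC protein and cell growth. Values below are FPKM, that is fragments counted per kilobase of each transcript and corrected for the fragments mapped in a library, so levels can be compared between genes. Changes are differences of log2(FPKM + 1) between group means with the standard error (SE) of the limma fit, and a gene was called at a Benjamini-Hochberg adjusted p under 0.01 over every gene tested in the comparison. The study's methods describe duplicate plates, so a p-value measures only the spread between replicate plates, with 2 per group. The fit pools that spread over its groups and moderates it over genes.

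The melanocyte markers were present, apart from a pair in COLO858. MITF, SOX10, PMEL, DCT and S100B were above 1 FPKM in both lines, whereas MLANA stayed between 0.299 and 0.725 FPKM and TYR between 0.282 and 1.21 FPKM in COLO858. Over 14 markers of keratinocytes, fibroblasts, endothelium and blood, the summed level was 8.57 to 27.6 FPKM in COLO858 and 20.8 to 79.9 FPKM in MMACSF, most of it from LUM, and 5 to 7 of the 14 were listed at 0 in each group. That sum was higher under drug in COLO858 (16.5 to 27.6 FPKM against 8.57 to 11.5) and lower at 48 h in MMACSF (20.8 to 29.7 FPKM against 58.3 to 79.9), and its part in the results was not tested. The FPKM of a library summed to 670310 to 1013038, and small RNA genes held 20.9% to 50.6% of that sum, a share that was higher in replicate 2 of every group. Counts without the small RNA genes are given with the other alternatives. In these bulk samples, fewer cells of a type and less RNA per cell cannot be told apart.

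Most of the 45 genes had lower levels under vemurafenib in both lines, and none was called higher. Against DMSO, 7 of 45 members were called lower in COLO858 at 24 h, where 5.71% of all genes tested were, and 15 of 45 at 48 h, where 4.73% were. In MMACSF 8 of 45 were called lower at 24 h, against 3.6% of all genes, and 9 of 45 at 48 h, against 5.41%. No member was called higher by limma in any of these comparisons, where 4.11% and 4.74% of all genes in COLO858 and 2.22% and 3.42% in MMACSF were. At an unadjusted p under 0.05, 35, 40, 36 and 32 members were lower and 0, 0, 1 and 1 higher, in the order COLO858 at 24 and 48 h and MMACSF at 24 and 48 h. By that measure 19.5%, 20.5%, 16.5% and 18.7% of all genes were lower and 20.8%, 18.8%, 19.5% and 20.3% higher.

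The median change of the members was -0.75 in COLO858 at 24 h and -1.03 at 48 h, beside medians over all genes of 0.06 and -0.01. In MMACSF it was -0.79 and -0.67, beside 0.07 and 0.06. Both drug-treated libraries lay below both DMSO libraries for 40 of 45 members in COLO858 at 24 h (29% of all genes tested), 43 at 48 h (31.4%), 40 in MMACSF at 24 h (25.8%) and 37 at 48 h (28.8%). The members' FPKM summed to 3932 and 4089 in the COLO858 DMSO libraries, 2266 and 2385 at 24 h and 1794 and 1901 at 48 h. In MMACSF the sums were 2782 and 2793 under DMSO, 1685 and 1677 at 24 h, and 1865 and 1764 at 48 h. So the sum was lower at each step in COLO858, while in MMACSF both drug groups lay below DMSO and the 48 h libraries above the 24 h libraries. Abundant members weigh most in a sum, and NPM1 alone was at 592 to 712 FPKM in the treated MMACSF libraries. The members' median level in MMACSF was 15.4 and 15.2 FPKM at 24 h and 15.6 and 15.8 at 48 h. In COLO858 it was 23.0 and 21.6 FPKM at 24 h and 18.3 and 19.9 at 48 h.

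The counts of calls rest on all the libraries. With any 1 of the 4 libraries of a comparison left out, limma called 0 members in each of the 4 comparisons against DMSO, while calls over all genes dropped to 114 to 154 in COLO858 and to 58 to 135 in MMACSF. In such fits the group left with 1 library is taken to vary like the others. Between 23 and 37 members still had an unadjusted p under 0.05 in them, beside 27.1% to 34.2% of all genes, and the members' median stayed between -0.62 and -1.06.

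**Figure D1:**
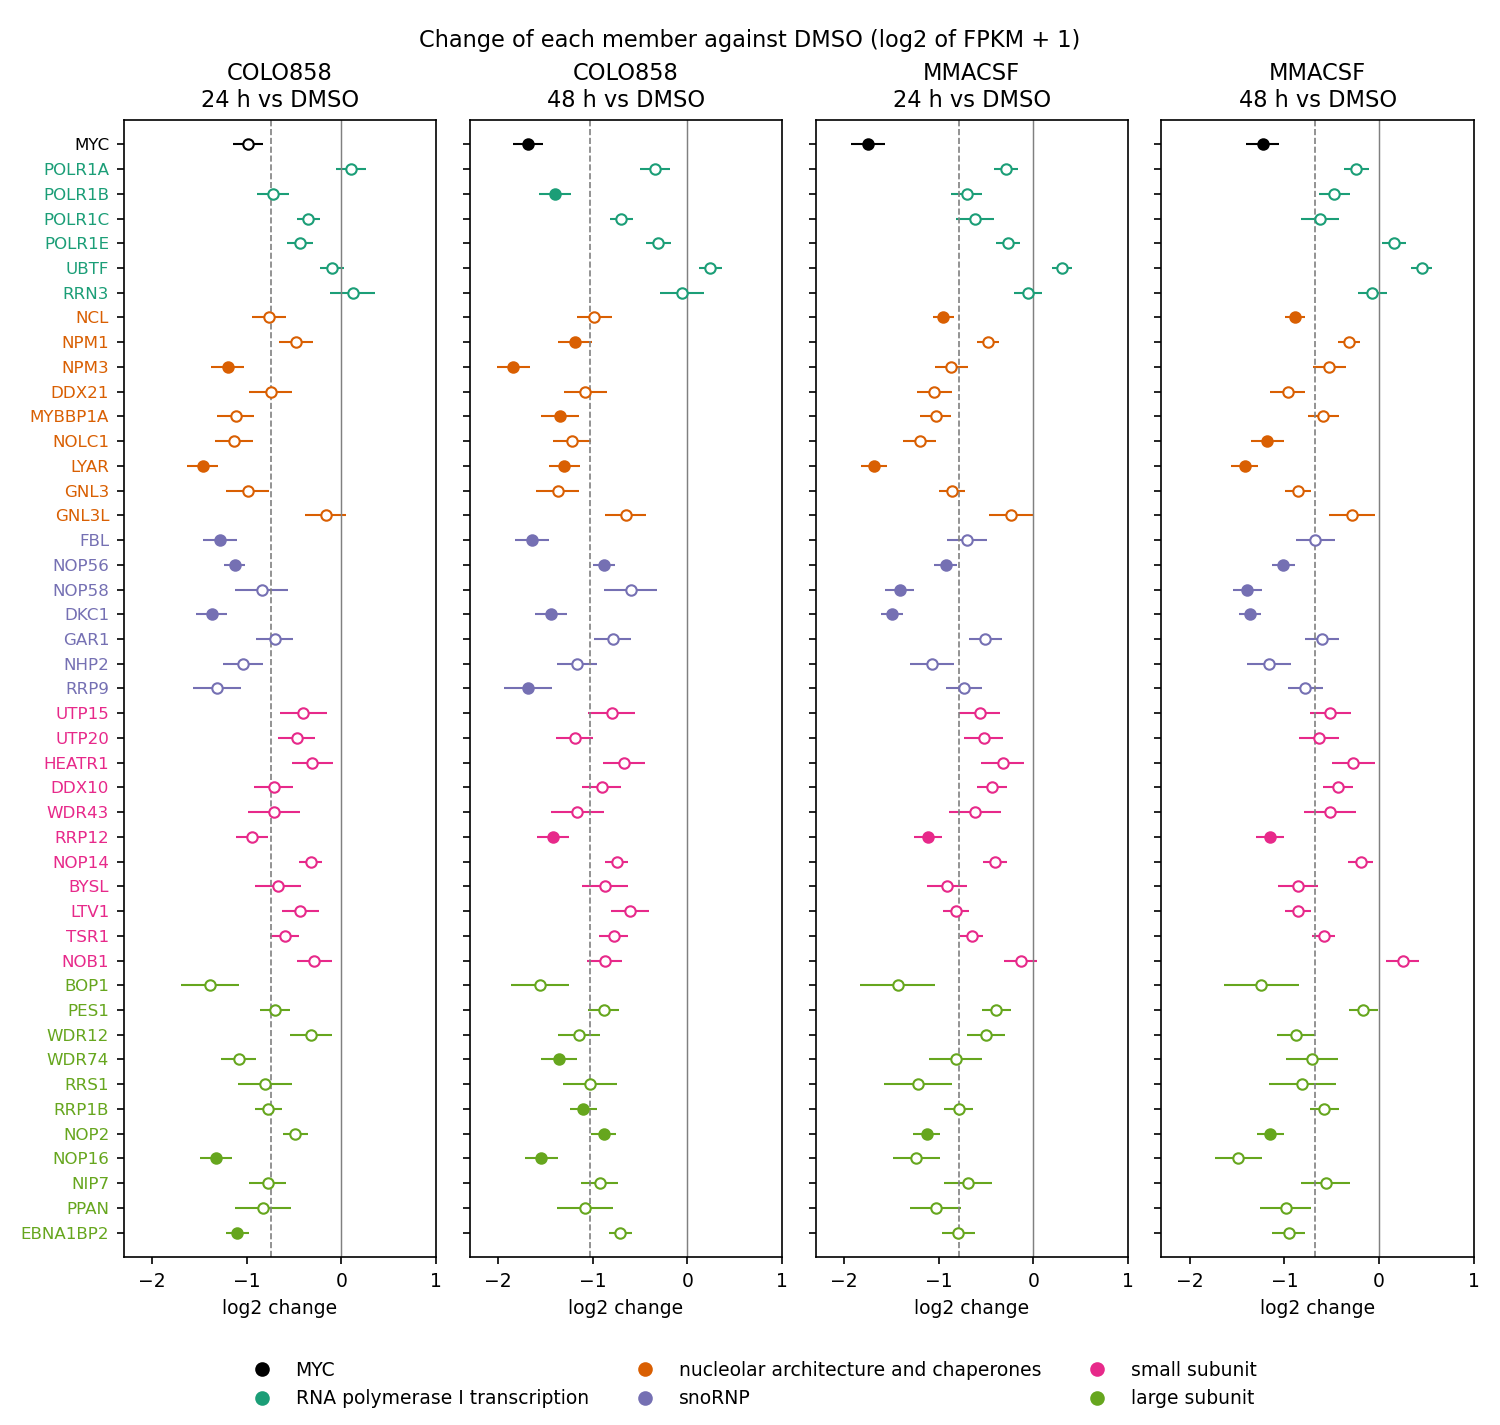
Change of each of the 45 members against DMSO in the 4 drug comparisons, as the difference of log2(FPKM + 1) between group means on the horizontal axis, with 1 SE as the bar. Filled points were called (adjusted p under 0.01, 7, 15, 8 and 9 members from left to right), the dashed line is the members' median and the colours mark the role groups. Nearly all points lie left of 0, and the RNA polymerase I group in green lies closest to it.

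MYC itself (GRCh37 chr8:128747680-128755197, plus strand) was at 136 and 113 FPKM under DMSO, 66.5 and 57.9 at 24 h and 39.7 and 36.3 at 48 h in the COLO858 libraries. In MMACSF it was at 74.7 and 63.8 FPKM under DMSO, 22.7 and 17.4 at 24 h and 31.002 and 26.9 at 48 h. The groups did not overlap within either line, and the lowest level came at 48 h in COLO858 but at 24 h in MMACSF. The change in COLO858 was -0.99 ± 0.16 (SE, adjusted p = 0.0109) at 24 h, which missed the threshold, and -1.68 ± 0.16 (SE, adjusted p = 0.00274) at 48 h. In MMACSF it was -1.74 ± 0.18 (SE, adjusted p = 0.00438) at 24 h and -1.23 ± 0.18 (SE, adjusted p = 0.00842) at 48 h.

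From 24 to 48 h the change of MYC was -0.70 ± 0.16 (SE, adjusted p = 0.0706) in COLO858 and 0.52 ± 0.18 (SE, adjusted p = 0.611) in MMACSF, opposite in sign and neither called. The difference between the lines over that interval was -1.21 ± 0.23 (SE, adjusted p = 0.0191), short of the threshold. Against DMSO the lines differed by 0.76 at 24 h (adjusted p = 0.0916) and -0.45 at 48 h (adjusted p = 0.264), also not called. With 1 library left out, the adjusted p of MYC ranged from 0.0158 to 0.0243 in COLO858 at 48 h, from 0.0182 to 0.0380 in MMACSF at 24 h and from 0.0420 to 0.0652 in MMACSF at 48 h, so 0 of these 3 calls were kept, while the changes stayed between -1.81 and -1.55, -1.93 and -1.56, and -1.34 and -1.12. The call in MMACSF at 48 h was also lost with no minimum level (adjusted p = 0.0122) and on rescaling by median ratios (adjusted p = 0.0117), and MYC was called in COLO858 at 24 h without the small RNA genes (adjusted p = 0.00599).

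**Figure D2:**
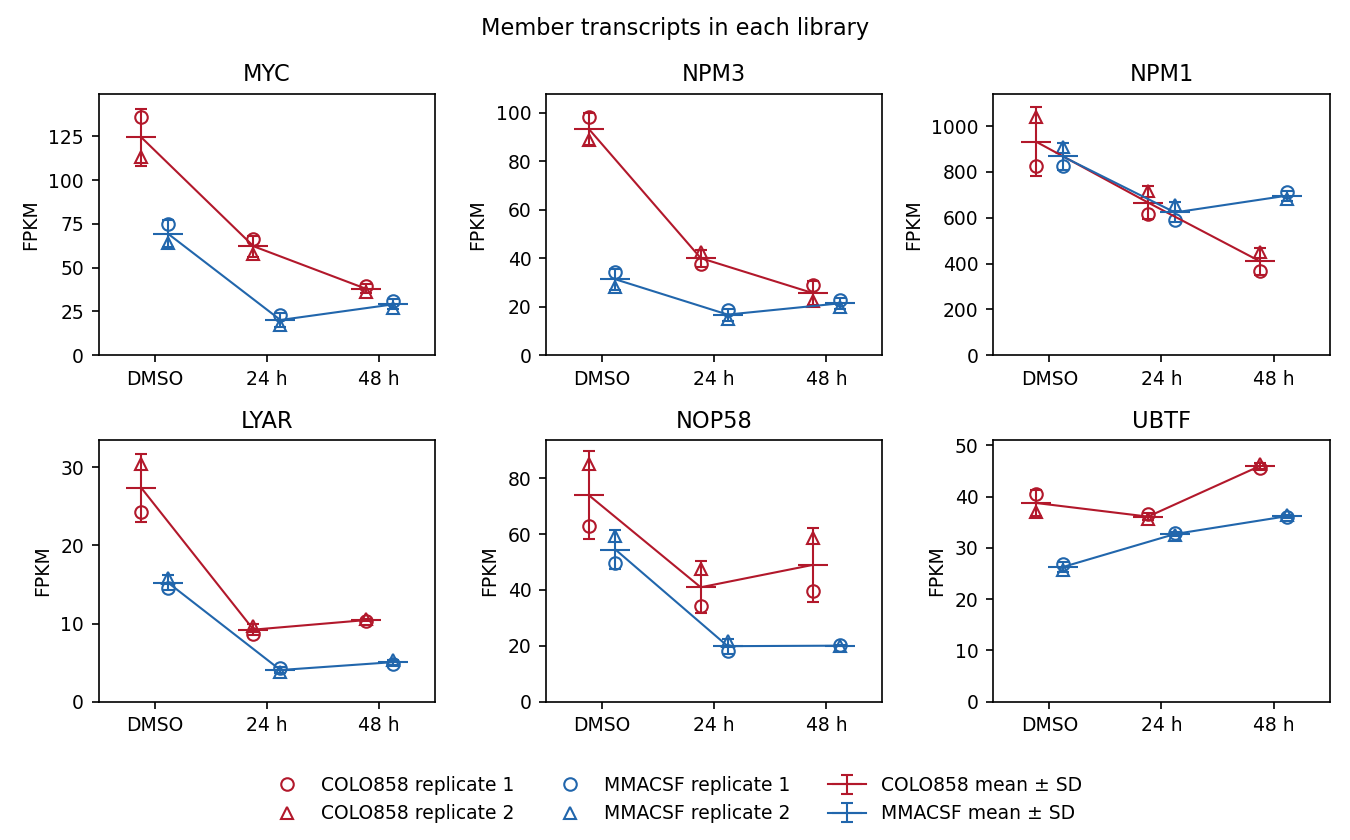
FPKM of 6 members in every library, with DMSO, 24 h and 48 h of vemurafenib on the horizontal axis, circles and triangles for replicates 1 and 2, and lines through the group means with SD bars (n = 2). MYC, NPM3 and NPM1 were lower at each step in COLO858 (red), and in MMACSF (blue) their means were lowest at 24 h, NOP58 was near 20 FPKM in the treated MMACSF libraries, and UBTF was highest at 48 h in both lines.

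The partners and antagonists of MYC were measured as a separate list of 11 genes, of which 9 were tested. MXI1 and MXD4, which pair with MAX and repress E-box genes, were called higher in both lines at both times. MXI1 was at 11.8 and 17.6 FPKM under DMSO, 74.7 and 96.999 at 24 h and 75.98 and 105 at 48 h in COLO858, and at 33.8 and 45.6 FPKM under DMSO, 119 and 145 at 24 h and 137 and 172 at 48 h in MMACSF. The changes of MXI1 at 48 h were 2.55 ± 0.27 (SE, adjusted p = 0.00395) and 1.94 ± 0.21 (SE, adjusted p = 0.00398). MXD4 rose from 6.33 and 5.17 to 24.7 and 24.6 FPKM in COLO858 and from 7.05 and 5.72 to 21.03 and 22.6 FPKM in MMACSF, or by 1.93 and 1.63. MAX, the common partner, had changes of -0.25 and -0.01 at 48 h and was not called. MXD3, a MAX partner of the same family as MXD4, went the other way. It was the lowest of the list in MMACSF at 48 h (-1.02, not called). In COLO858 it was called lower at 24 h (-0.92 ± 0.14 (SE, adjusted p = 0.00947)). MLX was the lowest in COLO858 at 48 h (-0.75, not called). MYCN was listed at 0 in all 12 libraries. None of the 9 differed between the lines past the threshold at 48 h, where limma gave 0 calls and 1 gene was at an unadjusted p under 0.05. With 1 library left out, limma called 0 of the 9 against DMSO.

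The promoters of the members were searched for CACGTG, which reads the same on both strands, in RefSeq sequences of GRCh38.p14 that run from 250 bases before to 50 bases after each start site. Of the 45 members, 37 had a promoter that was searched, and 15 of the 37 (40.5%) held the motif in at least 1 of their promoters. The motif was present for 8.77% of all 27305 genes with a promoter, for 12.9% of the 9283 genes tested in either line, for 4 of 63 ribosomal protein genes (6.35%) and for 4 of 20 genes of DNA replication and mitosis. Per promoter the shares were 16 of 48 for the members and 7.26% of all 35116. Most of the matches lay within 50 bases after the start site. MYC, NOP58, RRP12, BOP1, RRS1, RRP1B, POLR1E and NOLC1 had no entry. Windows of up to 30 bases around the motif, written in capitals, are shown for members called lower in 1 line or more and for PES1 and LTV1, which had the highest change of their groups in 1 line, so that the flanks can be compared.
LYAR, chr4:4290068-4290097, - strand: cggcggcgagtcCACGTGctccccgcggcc
FBL, chr19:39846356-39846385, - strand: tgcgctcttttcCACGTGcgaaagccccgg
RRP9, chr3:51941892-51941921, - strand: gggttcagctgcCACGTGagttctgcggcc
NOP2, chr12:6568242-6568268, - strand: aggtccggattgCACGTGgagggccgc
MYBBP1A, chr17:4555340-4555369, - strand: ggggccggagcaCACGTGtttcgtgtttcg
EBNA1BP2, chr1:43172790-43172819, - strand: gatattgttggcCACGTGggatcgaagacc
EBNA1BP2, chr1:43172241-43172260, - strand: gcgattcggtggCACGTGga
PES1, chr22:30591880-30591909, - strand: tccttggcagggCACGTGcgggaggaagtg
LTV1, chr6:143843354-143843383, + strand: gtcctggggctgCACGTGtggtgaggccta

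Counted from the first transcribed base as 1, the motif began at base -64 in LYAR, -5 in RRP9, 7 in FBL, 36 in NOP2, 28 in MYBBP1A, 14 in PES1 and 29 in LTV1. In EBNA1BP2 it began at -237 and 43, each counted from a different start site. For a wider view, the 250 bases before a start site are given for LYAR and for NPM3. LYAR was called lower in every drug comparison, and another of its start sites (upstream bases chr4:4290155-4290404, not shown) had no CACGTG. NPM3 had the lowest change in COLO858 at 48 h and has no CACGTG in its window.
LYAR, chr4:4290022-4290271, - strand: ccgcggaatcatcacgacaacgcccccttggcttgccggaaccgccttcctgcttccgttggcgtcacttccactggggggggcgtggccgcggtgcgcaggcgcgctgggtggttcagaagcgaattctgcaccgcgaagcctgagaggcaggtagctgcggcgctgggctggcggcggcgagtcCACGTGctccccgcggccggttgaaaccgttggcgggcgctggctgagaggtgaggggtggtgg
NPM3, chr10:101783447-101783696, - strand: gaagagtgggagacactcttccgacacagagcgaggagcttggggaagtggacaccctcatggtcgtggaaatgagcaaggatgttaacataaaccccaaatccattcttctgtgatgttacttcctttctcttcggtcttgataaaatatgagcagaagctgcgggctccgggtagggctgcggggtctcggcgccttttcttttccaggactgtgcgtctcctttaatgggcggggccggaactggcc

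At 48 h the 15 members with the motif had a median change of -1.08 in COLO858 (range -1.68 to -0.60) and the 22 without it -0.91 (range -1.84 to 0.24). In MMACSF the medians were -0.78 (range -1.42 to -0.17) and -0.55 (range -1.49 to 0.45). In both lines the range with the motif lay inside the range without it, which reached higher. Of the 15 and the 22, 5 and 7 were called lower in COLO858, and 2 and 3 in MMACSF. A match in this window is a description of the sequence only.

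The RNA polymerase I genes stayed closest to DMSO. The group's median was -0.22 and -0.32 in COLO858 at 24 and 48 h, and -0.28 and -0.16 in MMACSF, with 1 of 6 members called lower, POLR1B in COLO858 at 48 h. POLR1B, the second largest subunit of the polymerase, was at 18.4 and 21.2 FPKM under DMSO, 10.7 and 12.6 at 24 h and 6.23 and 7.56 at 48 h in COLO858. Its change there was -1.40 ± 0.17 (SE, adjusted p = 0.00564) at 48 h. In MMACSF it was at 9.65 and 11.96 FPKM under DMSO, 5.97 and 6.48 at 24 h and 6.89 and 8.07 at 48 h, a change of -0.47 ± 0.16 (SE, adjusted p = 0.0927) at 48 h. The lines differed for POLR1B by -0.92 ± 0.22 (SE, adjusted p = 0.026), which was not called. POLR1C, a subunit shared with RNA polymerase III, had the lowest change of the group in MMACSF, at 23.7 and 20.8 FPKM under DMSO, 17.1 and 11.7 at 24 h and 13.5 and 14.6 at 48 h, or -0.63 ± 0.20 (SE, adjusted p = 0.0764), and it was at 24.3 and 25.1 FPKM under DMSO, 18.7 and 19.6 at 24 h and 14.9 and 14.8 at 48 h in COLO858, or -0.70 ± 0.12 (SE, adjusted p = 0.0153). The treated libraries of POLR1C lay below the DMSO libraries in each line, without a call.

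UBTF, which binds the ribosomal DNA and keeps it open for polymerase I, had the highest change of the group in both lines. It was at 40.6 and 36.99 FPKM under DMSO, 36.6 and 35.6 at 24 h and 45.6 and 46.4 at 48 h in COLO858 and at 26.9 and 25.6 FPKM under DMSO, 32.9 and 32.5 at 24 h and 35.97 and 36.4 at 48 h in MMACSF. The 48 h libraries were the highest of each line, with changes of 0.24 ± 0.12 (SE, adjusted p = 0.209) and 0.45 ± 0.11 (SE, adjusted p = 0.0345), neither called. POLR1A, the largest subunit, ranged from 9.26 to 14.8 FPKM over all 12 libraries, and RRN3, the factor that brings polymerase I to the promoter, from 13.97 to 22.98 FPKM. Their changes against DMSO lay between -0.34 and 0.12 in both lines. RRN3 has 3 numbered pseudogenes in GENCODE, so its reads may be shared. POLR1E, a polymerase I subunit that helps keep the enzyme engaged, had changes of -0.31 in COLO858 and 0.16 in MMACSF at 48 h, also not called.

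The nucleolar proteins and histone chaperones were lower by more. The group of 9 had medians of -0.99 and -1.21 in COLO858 and -0.95 and -0.85 in MMACSF, with 2 and 4 members called lower in COLO858 and 2 and 3 in MMACSF at 24 and 48 h. NPM3 (GRCh37 chr10:103541082-103543203, minus strand), a histone chaperone of the nucleophosmin family, had the largest fall of all 45 members in COLO858 at 48 h. It was at 98.2 and 88.8 FPKM under DMSO, 37.6 and 42.5 at 24 h and 29.1 and 22.2 at 48 h in COLO858 and at 34.3 and 28.3 FPKM under DMSO, 18.5 and 14.99 at 24 h and 22.95 and 19.8 at 48 h in MMACSF. The DMSO libraries of COLO858 stood far above every treated library of that line, and in MMACSF the treated libraries were closer but still below DMSO. The changes at 48 h were -1.84 ± 0.18 (SE, adjusted p = 0.00301) and -0.53 ± 0.17 (SE, adjusted p = 0.0802). NPM3 was the only member for which the lines differed past the threshold at 48 h, by -1.31 ± 0.25 (SE, adjusted p = 0.00889). That call was lost on rescaling the libraries by median ratios (adjusted p = 0.0274), with a constant of 0.1 FPKM (adjusted p = 0.0109) or with no minimum level (adjusted p = 0.0109), and with 7 of the 8 libraries left out in turn (adjusted p up to 0.0398).

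NPM1, the most abundant member and the main chaperone of the nucleolus, was at 827 and 1038 FPKM under DMSO, 616 and 716 at 24 h and 368 and 450.3 at 48 h in COLO858, and at 825 and 909 FPKM under DMSO, 592 and 654 at 24 h and 712 and 681 at 48 h in MMACSF. In COLO858 it was lower at each step without overlap, whereas in MMACSF the 48 h libraries lay between the DMSO and the 24 h libraries. The changes at 48 h were -1.18 ± 0.18 (SE, adjusted p = 0.0097) and -0.31 ± 0.12 (SE, adjusted p = 0.107), and the lines differed by -0.87 ± 0.21 (SE, adjusted p = 0.0274), not called. The COLO858 call of NPM1 was lost with no minimum level (adjusted p = 0.0158). NPM1 has 49 numbered pseudogenes in GENCODE, and how reads were shared among them is not known. NCL, nucleolin, the other abundant nucleolar protein, ranged from 234 to 569 FPKM in COLO858 and from 191 to 397 FPKM in MMACSF and was called lower in MMACSF only, with changes of -0.95 and -0.89, although its changes in COLO858 were -0.76 and -0.98 and the lines differed by -0.09 at 48 h (adjusted p = 0.846).

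LYAR (GRCh37 chr4:4269428-4291881, minus strand), a nucleolar zinc-finger protein of growing cells, was called lower in each of the 4 comparisons. It was at 24.3 and 30.4 FPKM under DMSO, 8.69 and 9.74 at 24 h and 10.4 and 10.5 at 48 h in COLO858, and at 14.5 and 15.9 FPKM under DMSO, 4.29 and 3.81 at 24 h and 4.83 and 5.27 at 48 h in MMACSF. Levels were lowest at 24 h in both lines and stayed far below DMSO at 48 h, with changes of -1.30 ± 0.16 (SE, adjusted p = 0.0061) and -1.42 ± 0.14 (SE, adjusted p = 0.00311). GNL3L, a nucleolar GTPase, had the highest change of the group, from 6.18 and 8.14 to 3.77 and 4.59 FPKM in COLO858 at 48 h and from 3.04 and 4.14 to 2.28 and 3.27 FPKM in MMACSF. The MMACSF groups overlapped, as did DMSO and 24 h in COLO858. At 24 h it was at 5.31 and 7.27 and at 2.37 and 3.49 FPKM. Its changes at 48 h were -0.65 ± 0.22 (SE, adjusted p = 0.0858) and -0.29 ± 0.24 (SE, adjusted p = 0.431). The paralogue GNL3, nucleostemin, had changes of -1.37 and -0.85 at 48 h, neither called, and MYBBP1A, a nucleolar protein that binds the MYB factor, of -1.35 (called) and -0.59 (not called).

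Of the 5 role groups, the snoRNP proteins had the largest share of calls, with 3 and 4 of 7 lower in COLO858 and 3 and 3 of 7 in MMACSF at 24 and 48 h, and medians of -1.13, -1.16, -0.92 and -1.01. DKC1, the pseudouridine synthase of the H/ACA particle, and NOP56, a core protein of the C/D particle, were called in all 4 comparisons. RRP9, which binds the U3 snoRNA, had the largest fall of the group in COLO858, where it was at 74.4 and 54.5 FPKM under DMSO, 28.8 and 21.6 at 24 h and 22.4 and 16.4 at 48 h, and it was at 32.6 and 22.9 FPKM under DMSO, 15.8 and 16.3 at 24 h and 16.1 and 14.97 at 48 h in MMACSF. All treated libraries lay below DMSO, with changes of -1.68 ± 0.25 (SE, adjusted p = 0.00976) at 48 h in COLO858 and -0.78 ± 0.19 (SE, adjusted p = 0.0363) in MMACSF. The call of RRP9 was lost with no minimum level (adjusted p = 0.0145) and on rescaling (adjusted p = 0.0175). FBL, fibrillarin, the methyltransferase of the C/D particle, had a change of -1.64 (called) in COLO858 and -0.67 (not called) in MMACSF, a difference of -0.97 ± 0.29 (SE, adjusted p = 0.0577) that was not called.

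NOP58, the partner of NOP56 in the C/D core, had the reverse order. It was at 49.6 and 59.3 FPKM under DMSO, 17.96 and 21.8 at 24 h and 20.1 and 19.99 at 48 h in MMACSF, the lowest change of the group there, and at 62.8 and 85.2 FPKM under DMSO, 34.4 and 47.5 at 24 h and 39.5 and 58.4 at 48 h in COLO858, the highest. The treated MMACSF libraries were near 20 FPKM against 49.6 FPKM or more under DMSO, while in COLO858 the highest 48 h library was within 5 FPKM of the lower DMSO library. The changes at 48 h were -1.39 ± 0.15 (SE, adjusted p = 0.00428) and -0.60 ± 0.28 (SE, adjusted p = 0.182), and the lines differed by 0.80 ± 0.34 (SE, adjusted p = 0.171), not called. GAR1, of the H/ACA particle, had the highest change of the group in MMACSF, at 14.6 and 15.9 FPKM under DMSO, 11.1 and 9.88 at 24 h and 8.29 and 11.3 at 48 h, or -0.60 ± 0.18 (SE, adjusted p = 0.0618). In COLO858 GAR1 was at 25.2 and 33.6 FPKM under DMSO, 16.05 and 19.01 at 24 h and 15.4 and 17.6 at 48 h, or -0.79 ± 0.19 (SE, adjusted p = 0.0382).

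Factors of the small subunit had medians of -0.47 and -0.87 in COLO858 and -0.57 and -0.52 in MMACSF, and RRP12 was the only one of 11 called, in COLO858 at 48 h and in MMACSF at both times. RRP12, which takes part in the export of both subunits, was at 18.5 and 15.5 FPKM under DMSO, 8.96 and 7.65 at 24 h and 6.10 and 5.30 at 48 h in COLO858, and at 12.03 and 10.3 FPKM under DMSO, 4.82 and 4.41 at 24 h and 4.70 and 4.23 at 48 h in MMACSF. It fell by more than a log2 unit at 48 h in both lines, with changes of -1.42 ± 0.17 (SE, adjusted p = 0.00518) and -1.15 ± 0.15 (SE, adjusted p = 0.00651). With no minimum level the MMACSF calls of RRP12 were lost (adjusted p = 0.016 at 24 h and 0.0121 at 48 h). LTV1, an export adaptor of the small subunit, had the highest change in COLO858, at 19.3 and 25.1 FPKM under DMSO, 14.6 and 17.6 at 24 h and 12.8 and 15.6 at 48 h, or -0.60 ± 0.20 (SE, adjusted p = 0.0831). In MMACSF LTV1 was at 19.7 and 21.1 FPKM under DMSO, 11.2 and 11.1 at 24 h and 11.7 and 9.93 at 48 h, or -0.86 ± 0.14 (SE, adjusted p = 0.0108), and the treated libraries lay below the DMSO libraries in each line.

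NOB1, the endonuclease that makes the last cut of 18S ribosomal RNA, had changes of opposite sign. It was at 64.95 and 52.8 FPKM under DMSO, 53.6 and 42.6 at 24 h and 33.7 and 29.5 at 48 h in COLO858, and at 49.8 and 46.7 FPKM under DMSO, 48.5 and 39.8 at 24 h and 65.2 and 50.7 at 48 h in MMACSF. In COLO858 the 48 h libraries were the lowest, and in MMACSF they were the highest. Neither change was called, at -0.87 ± 0.19 (SE, adjusted p = 0.0256) and 0.25 ± 0.17 (SE, adjusted p = 0.339), and the difference of -1.12 ± 0.26 (SE, adjusted p = 0.0207) was the second largest among the members but did not pass the threshold. The other members of the group, among them UTP15, UTP20 and HEATR1 of the early U3 processome, had changes between -1.19 and -0.20 at 48 h.

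Factors of the large subunit had medians of -0.81 and -1.08 in COLO858 and -0.82 and -0.88 in MMACSF, with 2 and 4 of 11 called lower in COLO858 and 1 and 1 in MMACSF. BOP1, which forms the PeBoW complex with PES1 and WDR12, had the lowest change of the group in COLO858, at 84.9 and 58.8 FPKM under DMSO, 33.3 and 20.8 at 24 h and 26.7 and 20.4 at 48 h, and was at 65.6 and 45.3 FPKM under DMSO, 28.1 and 13.6 at 24 h and 27.4 and 18.3 at 48 h in MMACSF. Its SE was the widest of the 45 members in both lines, and the changes of -1.56 ± 0.31 (SE, adjusted p = 0.0204) and -1.24 ± 0.39 (SE, adjusted p = 0.0742) were not called. PES1, in the same complex, had the highest change in MMACSF, at 93.2 and 80.4 FPKM under DMSO, 70.7 and 61.3 at 24 h and 83.8 and 70.9 at 48 h, where the 48 h range reached into the DMSO range, or -0.17 ± 0.15 (SE, adjusted p = 0.463). In COLO858 PES1 was at 190.0 and 158 FPKM under DMSO, 112 and 101 at 24 h and 102 and 85.7 at 48 h, or -0.89 ± 0.16 (SE, adjusted p = 0.0158).

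NOP16, another assembly factor of the large subunit, had the lowest change in MMACSF, at 44.9 and 36.1 FPKM under DMSO, 18.8 and 14.6 at 24 h and 17.1 and 11.004 at 48 h, or -1.49 ± 0.25 (SE, adjusted p = 0.0134), and was called lower in COLO858 at both times. Its COLO858 values were 86.4 and 79.2 FPKM under DMSO, 36.9 and 28.6 at 24 h and 29.7 and 25.997 at 48 h, and the change at 48 h was -1.54 ± 0.17 (SE, adjusted p = 0.00456). All treated libraries lay well under DMSO in both lines. EBNA1BP2, an early assembly factor of the large subunit, had the highest change in COLO858 at 48 h, at 80.96 and 84.3 FPKM under DMSO, 39.4 and 36.7 at 24 h and 51.3 and 49.05 at 48 h, after a called fall at 24 h. Its change there was -1.10 ± 0.12 (SE, adjusted p = 0.00387) at 24 h and -0.71 ± 0.12 (SE, adjusted p = 0.0134) at 48 h, and its MMACSF values were 84.9 and 65.4 FPKM under DMSO, 46.7 and 38.9 at 24 h and 39.5 and 36.4 at 48 h, or -0.96 ± 0.17 (SE, adjusted p = 0.0159). NOP2, a methyltransferase of the large ribosomal RNA, was called lower in MMACSF at both times and in COLO858 at 48 h, with changes of -1.13, -1.15 and -0.88.

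Between 24 and 48 h most members were lower in COLO858, while their median hardly moved in MMACSF. In COLO858 39 of 45 members were lower at 48 h than at 24 h. Their median was -0.25, beside -0.07 over all genes, and both libraries lay below both 24 h libraries for 20 members (26.6% of all genes). In MMACSF 14 of 45 were lower and 31 higher, with a median of 0.05, beside -0.02 over all genes. There 1 member lay below without overlap (17.6% of all genes) and 15 lay above, while 5 lay above in COLO858. The share of all genes above without overlap was not counted. Limma called 0 members in either line (1.38% and 0.222% of all genes were called), and 14 and 3 had an unadjusted p under 0.05, beside 20.1% and 6.98% of all genes.

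The difference between the lines over that interval was below 0 for 39 members, with a median of -0.37 beside -0.04 over all genes, 0 calls (2.96% of all genes) and 11 members with an unadjusted p under 0.05 (17.4% of all genes). Against DMSO the difference was below 0 for 19 members at 24 h, with 0 calls (3.71% of all genes) and 3 members at an unadjusted p under 0.05 (21.2% of all genes). It was below 0 for 38 members at 48 h, with 1 call, NPM3 (7.48% of all genes), and 12 at an unadjusted p under 0.05 (27.5% of all genes). The median difference was 0.04 at 24 h and -0.27 at 48 h, and the single call is a smaller share than that over all genes. That share depends on the fit. With the replicate number as a block, 13 members were called lower and 1 higher at 48 h (25.3% of all genes called). For the interval from 24 to 48 h the block gave 10 calls, all lower (13% of all genes). What the replicate numbers pair is not given.

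Across the 45 members the changes at 48 h in one line followed those in the other, with Pearson's r of 0.57, beside 0.42 over 11700 genes tested in both lines. At 24 h r was 0.76 beside 0.53. These are descriptions across genes, which are not independent replicates, and within a line the values share 1 pair of DMSO libraries. MYC, LYAR, NOP56, DKC1, RRP12 and NOP2 were called lower in both lines at 48 h. That is 40.0% of the 15 calls in COLO858 and 66.7% of the 9 in MMACSF. LYAR, NOP56 and DKC1 were called in both lines at 24 h. How many of all genes were called in both lines was not counted, so whether these shares are high is not known.

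**Figure D3:**
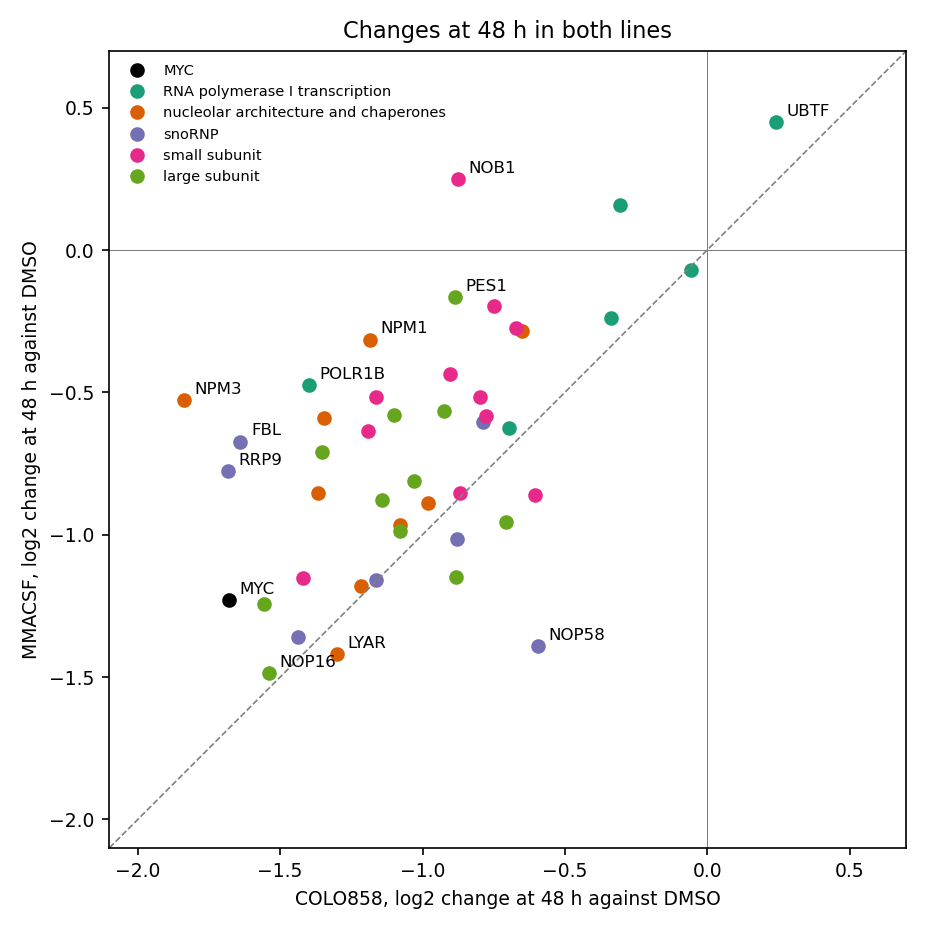
Change of each member at 48 h against DMSO, as the difference of log2(FPKM + 1), in COLO858 on the horizontal and MMACSF on the vertical axis, coloured by role, with the line of equal change dashed. Most members lie above the dashed line, that is with the change in COLO858 below that in MMACSF (38 of 45). NPM3, NOB1 and POLR1B lie far above it and NOP58 far below.

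The other genes of the pathway were taken from lists of general knowledge that hold no member. At 48 h their medians lay below that of all genes, with smaller falls than the median of the 45 members (-1.03 and -0.67). The list for RNA polymerases I and III had larger falls than the members' own RNA polymerase I group (-0.32 and -0.16). At 48 h the medians were -0.76 in COLO858 and -0.50 in MMACSF for 32 small subunit factors, -0.76 and -0.36 for 32 large subunit factors, -0.48 and -0.20 for 19 factors of RNA polymerases I and III, and -0.63 and -0.34 for 11 snoRNP and assembly factors. In that order 1, 1, 3 and 2 genes were called lower in COLO858 at 48 h and 1, 3, 1 and 1 in MMACSF, and none was called higher. The shares of all genes called lower, 4.73% in COLO858 and 5.41% in MMACSF, were not reached by 1 of 32 in either line or by 1 of 19 in MMACSF. At an unadjusted p under 0.05 by limma, 24, 22, 7 and 7 were lower and 0, 1, 1 and 0 higher in COLO858. By that measure 17, 13, 5 and 4 were lower and 0, 1, 4 and 1 higher in MMACSF. Of all genes, 20.5% and 18.7% were lower and 18.8% and 20.3% higher, in the order COLO858 and MMACSF. The lowest changes of the 4 lists in COLO858 were in EMG1, a methyltransferase of 18S ribosomal RNA (-1.46), DDX54 (-1.19), POLR3G, a subunit of RNA polymerase III (-1.89), and RUVBL1, an ATPase of snoRNP assembly (-1.26). In MMACSF they were in DCAF13 (-1.13), BRIX1 (-1.12), POLR3G (-1.62) and RUVBL1 (-1.04). EMG1, RUVBL1, DCAF13 and BRIX1 passed the test where named, RUVBL1 in both lines, and DDX54 and POLR3G did not.

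The highest changes of these lists were not called. They were -0.05 in RIOK2, 0.45 in DDX55, 0.66 in BRF2 and -0.08 in ZNHIT6 in COLO858, and 0.22 in UTP23, 0.91 in GLTSCR2 (now NOP53), 0.90 in TAF1C and 0.39 in ZNHIT3 in MMACSF. Among 12 further MYC targets of growth and metabolism the medians were -0.87 and -0.82, with 3 and 4 called lower. NME1, a nucleoside diphosphate kinase, fell most in both lines, to 181 and 189 FPKM from 557 and 519.9 in COLO858 and to 96.5 and 80.4 FPKM from 449.8 and 379.8 in MMACSF, with changes of -1.53 and -2.22. ODC1, ornithine decarboxylase, fell by 1.48 and 1.08 on the log2 scale, and both passed the test. SHMT1 (-0.08) in COLO858 and APEX1 (0.33) in MMACSF were the highest of this list.

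The ribosomal proteins themselves, the cargo of these factors, parted the lines. In COLO858 the median of 76 ribosomal protein genes was -0.39 at 24 h and -0.68 at 48 h, and 18 were called lower at 48 h. Limma called 0 at 24 h, where 44 were lower at an unadjusted p under 0.05. In MMACSF the median of 77 was 0.03 and 0.11, with 0 called by limma, while 1 gene was lower at an unadjusted p under 0.05 at each time and, at 48 h, 4 genes were above DMSO by that measure. The lines differed at 48 h for 14 of 77, all lower in COLO858, with a median difference of -0.78. With 1 library left out, 0 of these ribosomal proteins were called in COLO858 at 48 h by limma and 0 to 9 were called lower in COLO858 than in MMACSF. RPL12 was at 2395 and 2238 FPKM under DMSO, 1670.5 and 1541 at 24 h and 1100.3 and 1079 at 48 h in COLO858, and at 2768 and 2473 FPKM under DMSO, 2864 and 2488 at 24 h and 3211 and 2707 at 48 h in MMACSF, a difference at 48 h of -1.26 ± 0.17 (SE, adjusted p = 0.00198). RPS4X was the highest in COLO858 (0.03) and RPS27 in MMACSF (0.51), neither called. RPL21 was listed at 59.3 FPKM in 1 MMACSF DMSO library and at 0.0259 to 0.0539 FPKM in the other 11, which makes its value there (-2.92, the lowest of the list) void. Ribosomal protein genes have many processed pseudogenes, and how the authors' counting treated them is not known.

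The division genes did not follow the members in COLO858. Of 24 genes of DNA replication and mitosis, 24 were called lower in COLO858 at 24 h with a median of -2.80, and 1 at 48 h with a median of -0.63. From 24 to 48 h 14 of the 24 were called higher in COLO858 (median 2.15), while the members' median went from -0.75 to -1.03. In MMACSF 22 of 24 were called lower at both times, with medians of -2.14 and -2.52, and the lines differed in the interval for 23 of 24. With 1 library left out, 7 to 10 of these genes of DNA replication and mitosis were called lower in COLO858 at 24 h, 2 to 3 and 7 to 9 in MMACSF at 24 and 48 h, 0 to 1 were called higher from 24 to 48 h in COLO858, and 13 to 18 differed in the interval. CDC6, which loads the replicative helicase, was at 40.04 and 50.5 FPKM under DMSO, 1.97 and 2.33 at 24 h and 24.4 and 31.98 at 48 h in COLO858, and at 26.9 and 32.2 FPKM under DMSO, 1.01 and 1.69 at 24 h and 1.13 and 1.17 at 48 h in MMACSF. At 48 h the lowest and the highest of the list were AURKA (-1.30) and GINS4 (-0.24) in COLO858 and TOP2A (-5.10) and MCM7 (-1.03) in MMACSF.

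The 12 genes of ERK output, which report the pathway that vemurafenib blocks, had 9 of 12 called lower in each line at each time, and 4 to 6 with 1 library left out, with medians of -2.45 and -1.90 in COLO858 and -1.89 and -1.87 in MMACSF. ETV4, an ETS factor induced by ERK, fell most, from 196 and 149.9 to 2.99 and 2.38 FPKM in COLO858 and from 101 and 79.4 to 1.75 and 1.28 FPKM in MMACSF at 48 h. PHLDA1 (-0.21) and SPRED1 (0.06) were the highest and were not called. Of 8 melanocyte genes, 4 were called higher in COLO858 and 3 in MMACSF at 48 h, with medians of 1.95 (7 tested) and 0.80. Their summed level went from 702 and 717 FPKM under DMSO to 4144 and 4149 FPKM in COLO858 at 48 h. Their part in the members' fall was not tested.

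**Figure D4:**
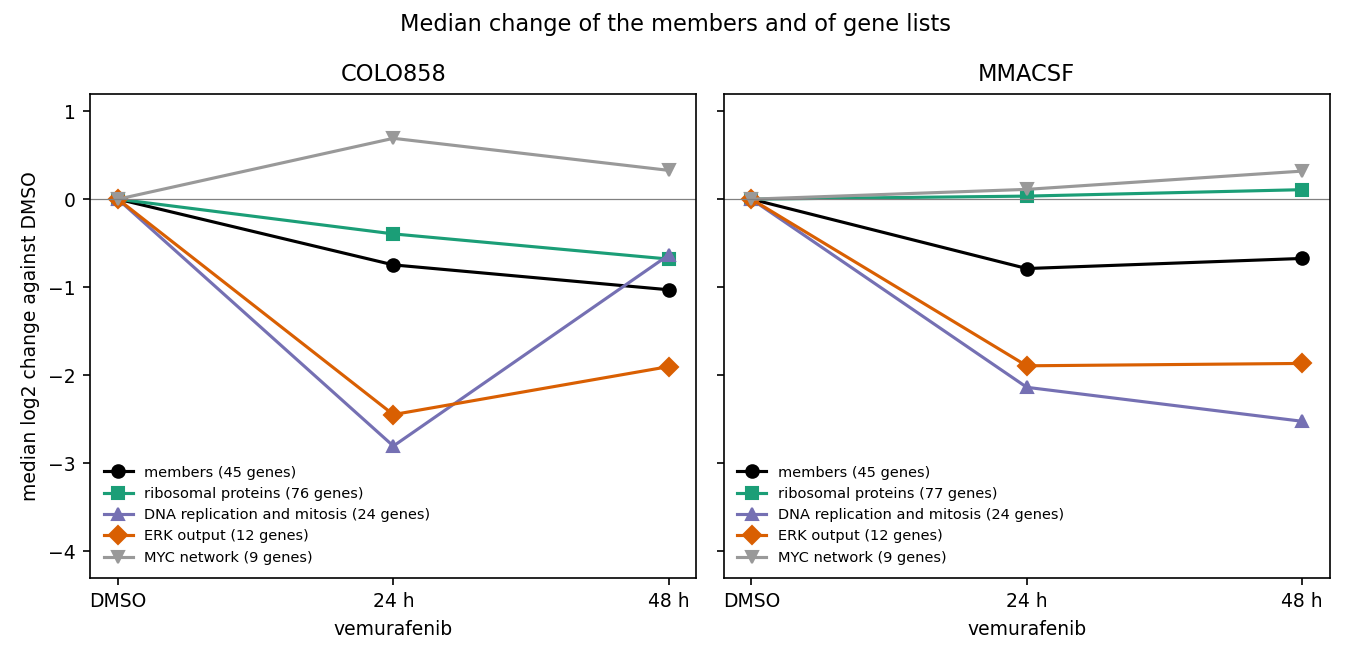
Median change against DMSO of the 45 members and of 4 gene lists, as log2(FPKM + 1) differences, in COLO858 (left) and MMACSF (right), with DMSO set at 0 and lines joining the medians at 24 and 48 h. In COLO858 the DNA replication and mitosis genes returned from -2.80 to -0.63 while the medians of the members and the ribosomal proteins were lower at 48 h than at 24 h, and in MMACSF the ribosomal proteins had medians of 0.03 and 0.11.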

How the data were processed

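RNA was measured by sequencing of stranded, poly(A)-selected libraries in 12 libraries of 6 groups. Per the labels and the study's methods, the authors aligned reads to hg19 (TopHat), computed FPKM for each gene (Cuffdiff on Galaxy) and deposited the FPKM as normalized values, with a table for each line. That the unit is FPKM was taken from those methods and because the values are not whole and their group means match FPKM that the study lists. Versions, annotation, strand setting and library scaling are not given in the sources used here. Depth is unknown: among genes at low levels, at most 12 of 459 shared 1 ratio between libraries at 3 decimals, so reads could not be recovered.

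Each line was fitted with limma 3.58.1 (R 4.3.3; lmFit, contrasts.fit, eBayes with a mean trend) on log2(FPKM + 1), and the difference between lines as an interaction over 12 libraries. A gene was tested where the mean of any group reached 1 FPKM, two-sided, with Benjamini-Hochberg adjustment over all of them, and called at 0.01. On this scale the change of low genes is understated. The lines were tabulated separately, so levels are compared only within a line. Alternatives were a constant of 0.1 FPKM, no minimum, median-ratio rescaling, the replicate number as a block, a threshold of 0.05, leaving out each library, and, chosen after seeing the data, leaving out small RNA genes. Members and lists were chosen with earlier results of these data known. Named in full were MYC, the members with the lowest and highest change at 48 h of each role group in each line, and members called for the line difference at 48 h. Other members whose values are given were chosen after their values were seen. Positions of genes come from GENCODE v44 on GRCh37 and promoters from RefSeq.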

Additional observations from a re-analysis of the deposited data

Results flagged for a closer look

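Differences between the lines that passed the interaction test are given here as values. NPM3 was lower in COLO858 than in MMACSF by a log2 difference of -1.31 in the change at 48 h against DMSO. Of 77 ribosomal protein genes, 14 differed in that change, all lower in COLO858, and 0 to 9 with 1 library left out, by limma. Of 24 genes of DNA replication and mitosis, 16 differed in it, all higher in COLO858, and 9 to 15 with 1 library left out. In the change from 24 to 48 h, 23 of those 24 genes differed, all higher in COLO858, and 13 to 18 with 1 library left out. With 2 libraries per group, no search for outlying libraries was made.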

How the results depend on the processing

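No called member changed its direction under any alternative run. Of the 39 calls of members against DMSO, 38 were kept with a constant of 0.1 FPKM, 26 without a minimum level, 31 after median-ratio rescaling, and 39 both without the small RNA genes and with the replicate block. In the order COLO858 at 24 and 48 h and MMACSF at 24 and 48 h against DMSO, 7, 15, 8 and 9 members were called lower. At a threshold of 0.05 the counts were 23, 33, 24 and 21, of which 1 in MMACSF at 48 h (UBTF) was higher, and the line difference gave 5 at 48 h and 2 between 24 and 48 h, where 25.8%, 26%, 20.3%, 24.1%, 15.6% and 6.36% of all genes were called. Without a minimum level they were 5, 10, 5 and 6 (5.59%, 5.46%, 2.95% and 4.75% of all genes). Without the small RNA genes, an alternative chosen after seeing the data, the counts were 12, 22, 12 and 15 (14.1%, 13.9%, 10.1% and 13.9% of all genes). A constant of 0.1 FPKM and no minimum each gave 0 calls for the line difference at 48 h, with NPM3 at an adjusted p of 0.0109 in both. Median-ratio rescaling gave 6, 17, 11 and 10 (11.9%, 10.5%, 7.01% and 9.74% of all genes) and, for the line difference at 48 h, 1, which was POLR1B in place of NPM3. Leaving out 1 library in turn gave 0 to 0 calls in the 4 comparisons against DMSO and 0 to 1 for the line difference at 48 h. The cause was not tested, and such fits have fewer samples. All counts of 0 are from limma.

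Replicate numbers are shared by the groups, but what they pair is not given. Deviations of same-numbered libraries correlated by 0.196 to 0.211 in COLO858 and 0.0628 to 0.113 in MMACSF over all genes tested, and by 0.753 to 0.779 and 0.590 to 0.673 without the small RNA genes. With the replicate number as a block, 38, 41, 27 and 25 members were called against DMSO and 12 in COLO858 between 24 and 48 h. The line differences at 24 h, at 48 h and between them then gave 5, 14 and 10. All these calls were lower, apart from 1 in MMACSF at 48 h, 2 for the line difference at 24 h and 1 for that at 48 h. Of all genes, 45%, 43.7%, 26.1% and 30.1% were then called against DMSO, 18% in COLO858 between the times, and 17.6%, 25.3% and 13% for the line differences. MYC, not called without it in these comparisons, was called with the block in COLO858 at 24 h (adjusted p = 0.000399) and from 24 to 48 h (adjusted p = 0.00229), and for the line differences at 24 h (adjusted p = 0.00139), at 48 h (adjusted p = 0.00627) and between them (adjusted p = 0.000333). Of the ribosomal proteins, 18 were called lower in COLO858 at 48 h and 14 for the line difference at 48 h, against 2 and 5 without a minimum level, 9 and 6 after median-ratio rescaling and 75 and 72 lower with the replicate block. Depth limits are unknown, and the precision of a single FPKM cannot be stated.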
